A study of Mus musculus with 11 samples.

Results

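The 8 genes described here regulate tissue mineral and were measured in the aortic arch of young mice. They are the inhibitors and suppliers of inhibitor Ahsg, Mgp, Enpp1 and Abcc6, the osteoclast inhibitor Tnfrsf11b, and the genes of the mineral-forming programme Alpl, Runx2 and Ibsp. These 8 genes, of 48709 mouse genes in the count table, were picked by name, and the set was selected on earlier results of Het against WT in these same libraries. Their differences in that comparison are therefore given as a description, with no p, and where a gene is said to pass the threshold set over all genes, that too is a description and supports nothing. The share of all genes whose Het and WT libraries do not overlap was not computed, so nothing is read from such a separation below. Of the 8, 7 had a row in the authors' normalized table, and Abcc6 had raw counts only. The filter on low counts kept 6 and left out Ibsp and Abcc6.

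Mineral forms in a matrix when calcium and phosphate outrun the inhibitors around them. Pyrophosphate is a small inhibitor of crystal growth: Abcc6 supports the release of ATP from cells, in the liver above all, Enpp1 cuts ATP outside the cell to give pyrophosphate, and the alkaline phosphatase encoded by Alpl destroys it. Mgp and fetuin-A, the product of Ahsg, are proteins that bind calcium mineral, and mice that lack Mgp calcify their arteries. Runx2 is the master transcription factor of osteoblasts, Ibsp encodes the sialoprotein of mineralizing bone matrix, and Tnfrsf11b encodes osteoprotegerin, a decoy receptor for the osteoclast factor RANKL.

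The tissue was the whole aortic arch, dissected at postnatal day 11 and sequenced as bulk RNA. The 6 Het libraries came from mice in which 1 Tgfbr2 allele carries the G357W substitution, which models type II Loeys-Dietz syndrome, an inherited connective tissue disorder with arterial aneurysms. The 5 WT libraries came from littermates with both Tgfbr2 alleles intact. No treatment is recorded in either group, each library was taken as 1 animal from the series description, and neither strain nor sex is stated.

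Total counts were 13162449 to 18883711 in Het and 13113467 to 19327935 in WT, and 3 counts, the limit that a count of 0 allows, came to 0.155 to 0.229 CPM (the count scaled to a fixed library depth and thus comparable between libraries). The labelled smooth muscle and endothelial cells were represented by their markers in every library: the 8 smooth muscle markers summed to 30574 to 41650 CPM in Het and 33697 to 38236 CPM in WT, and the 8 endothelial markers to 344 to 583 CPM in Het and 382 to 512 CPM in WT. The sexes were not balanced. Het 3 to 6 carried Y-linked transcripts (Ddx3y at 86.4 to 110.5 CPM), while Het 1, Het 2 and all 5 WT libraries were Xist-positive with 0 Ddx3y counts. WT 1 and WT 2 stood apart from the other libraries on the first principal component (49.7 and 47.1). That component also separated the groups, with Het at -29.1 to -14.7 and WT at 2.15 to 49.7. Summed markers of skeletal muscle were 8.88 to 17.2 CPM in Het and 21.3 to 43.3 CPM in WT, without overlap, a sum carried by Tnnt3 (8.76 CPM in Het and 27.0 CPM in WT on average); Tnnt3 and Tnni2 fell, while Acta1 and Mylpf did not pass and had positive log2 fold changes (0.55 and 0.07). Also without overlap were the sums of airway and thyroid epithelium (89.1 to 156.4 CPM in Het and 219.1 to 323.5 CPM in WT), nearly all of them Krt18, and of chondrocytes, carried by Acan and given below beside Sox9. Overlapping sums were found for 6 further lists: brown fat 317 to 2126 CPM in Het and 796 to 2829 CPM in WT, T cell and thymus 2.28 to 30.1 CPM in Het and 2.41 to 8.67 CPM in WT, erythroid 379.6 to 910.0 CPM in Het and 671.9 to 1573 CPM in WT, fibroblast 2672 to 3526 CPM in Het and 3226 to 4131 CPM in WT, macrophage 79.1 to 249.1 CPM in Het and 64.0 to 186.7 CPM in WT, and Schwann cell and nerve 1109 to 1207 CPM in Het and 964.1 to 1327 CPM in WT. An overlapping sum does not mean that every marker was level. Of the fibroblast markers, Pi16 and Mfap5 fell (log2 fold change -0.62 and -0.70), and of the smooth muscle markers Cnn1 fell (-0.51). The Schwann cell and nerve sum was nearly all Pmp22 (1123 CPM in Het and 1115 CPM in WT on average).

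Among the inhibitors, Ahsg was higher and Mgp was close to level. Ahsg (ENSMUSG00000022868, chromosome 16, 22891277 to 22899449 on the plus strand of GRCm38, protein coding) had 4.73, 3.82, 7.05, 2.85, 4.44 and 4.79 CPM in Het 1 to 6, against 0.331, 0.402, 0.308, 1.54 and 1.20 CPM in WT 1 to 5. Every Het library lay above every WT library, and WT 4 and WT 5 lay above the other 3 WT libraries. The fitted log2 fold change of Het over WT was 2.64 ± 0.42 (SE), a 6.22-fold difference resting on 403 counts in Het and 54 in WT. Ahsg is a gene of hepatocytes, and their other markers were near 0: the 12 hepatocyte markers together reached 0.0735 to 1.18 CPM in Het and 0.268 to 1.03 CPM in WT, the 3 fibrinogen chains and Apoa2 had no count in any library, and albumin had 5 counts in Het 1 and 0 in the other libraries. An antisense gene shares exon bases with Ahsg in the annotation and is not analysed here, and these libraries do not mark strand, so reads of either strand at the shared bases cannot be told apart.

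The window around the RefSeq start of Ahsg is shown because this gene had the largest fold change of the 6 tested. It lies at chr16:22891765-22892064 (plus strand, RefSeq on GRCm38.p6), 250 bases before the start and 50 from it on. Capitals in this and the later windows mark the RUNX core ACCACA on either strand, written TGTGGT on the other. No other spelling of the core was searched. Of 32851 RefSeq windows of the same length, 16.8 percent hold it in this spelling.
Ahsg: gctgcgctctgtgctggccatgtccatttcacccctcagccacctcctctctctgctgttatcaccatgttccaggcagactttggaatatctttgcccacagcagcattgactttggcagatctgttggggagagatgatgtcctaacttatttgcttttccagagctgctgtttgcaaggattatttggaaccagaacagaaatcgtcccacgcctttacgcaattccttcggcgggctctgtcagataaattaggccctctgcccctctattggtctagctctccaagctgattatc
No copy of these letters is in this Ahsg window.

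Mgp (ENSMUSG00000030218, chromosome 6, 136872435 to 136875823, minus strand), the vitamin K-dependent matrix Gla protein of smooth muscle and cartilage, was the most abundant of the 8. It had 745, 678, 658, 607, 579 and 735 CPM in Het 1 to 6, against 353, 476, 664, 766 and 733 CPM in WT 1 to 5. The groups overlapped, and the WT libraries were the more spread: WT 1 and WT 2 lay below every Het library and the other 3 WT libraries lay inside or above the Het range. The mean was 667 ± 66.9 CPM in Het (SD, n = 6) and 598 ± 177 CPM in WT (SD, n = 5). The log2 fold change was 0.16 ± 0.16 (SE), and it was -0.11 ± 0.09 without WT 1 and WT 2, so its sign rests on those libraries.

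Tnfrsf11b (ENSMUSG00000063727, chromosome 15, 54250619 to 54278484, minus strand) was higher in Het. Its level was 49.1, 41.1, 38.1, 38.3, 50.7 and 45.5 CPM in Het 1 to 6, against 26.8, 21.4, 20.7, 38.1 and 20.3 CPM in WT 1 to 5. Apart from WT 4, which touched the lowest Het library, the groups did not overlap. The log2 fold change was 0.78 ± 0.16 (SE), a 1.72-fold difference, and it was 0.97 ± 0.12 without WT 4.

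**Figure D1:**
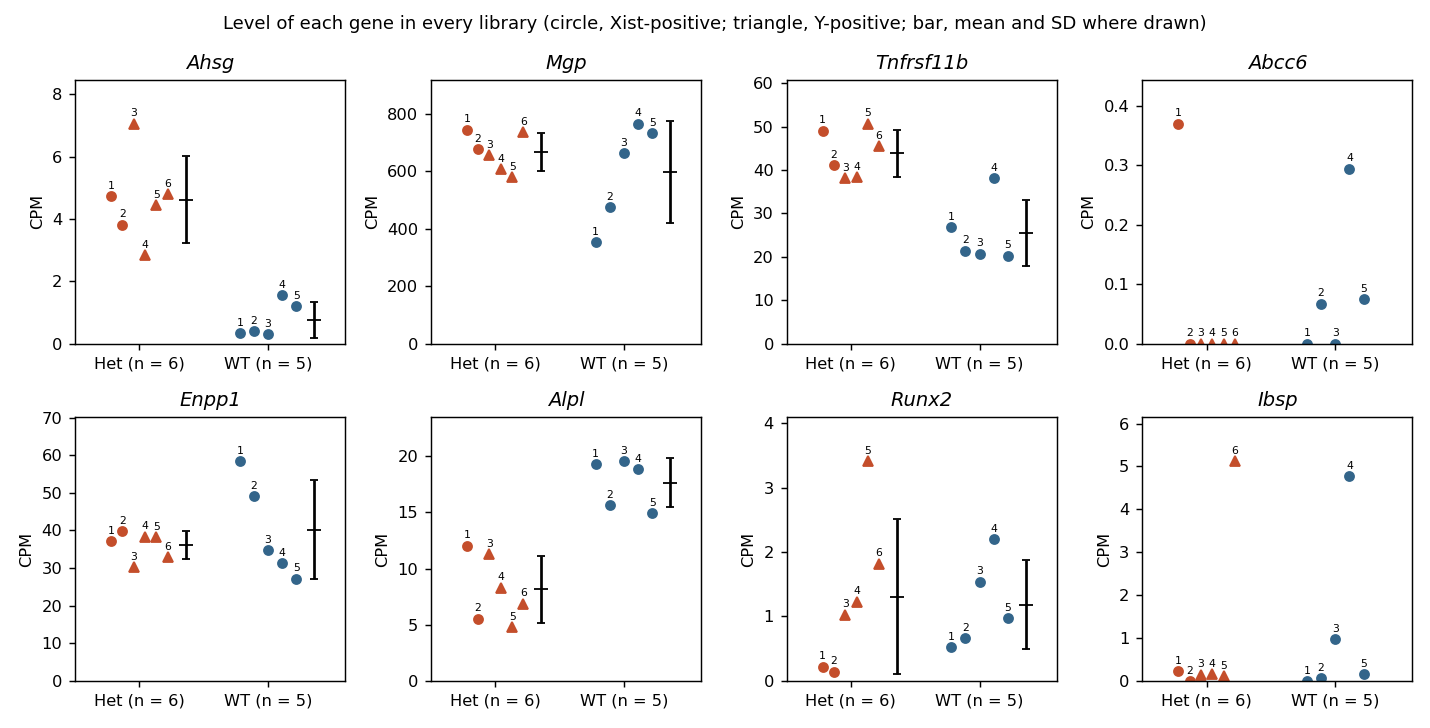
Level of the 8 genes in every library, in CPM on linear axes from 0, Het on the left and WT on the right of each panel, with replicate numbers above the points; bars are the mean and SD, not drawn for Ibsp and Abcc6. Circles are Xist-positive and triangles Y-positive libraries. Ahsg lies above every WT library in all 6 Het libraries and Alpl below, while Ibsp is high in Het 6 and WT 4.

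The pyrophosphate genes did not move together. Enpp1 (ENSMUSG00000037370, chromosome 10, 24637914 to 24712159, minus strand) had 37.2, 39.8, 30.2, 38.4, 38.3 and 32.9 CPM in Het 1 to 6, against 58.5, 49.1, 34.9, 31.3 and 27.2 CPM in WT 1 to 5. The Het libraries lay within the WT range, which WT 1 and WT 2 stretched upward. The log2 fold change was -0.15 ± 0.17 (SE) over all libraries, 0.02 ± 0.15 without WT 1 and 0.21 ± 0.12 without WT 1 and WT 2, so its sign, like that of Mgp, rests on those libraries.

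Alpl (ENSMUSG00000028766, chromosome 4, 137741733 to 137796384, minus strand), the tissue-nonspecific alkaline phosphatase, was lower in Het. It had 12.04, 5.55, 11.3, 8.31, 4.77 and 6.88 CPM in Het 1 to 6, against 19.3, 15.6, 19.6, 18.8 and 14.95 CPM in WT 1 to 5. All 6 Het libraries lay below all 5 WT libraries, and Het 1 and Het 3 came nearest to WT. The log2 fold change was -1.12 ± 0.22 (SE), so that Het held 0.460 of the WT level, from 692 counts in Het and 1361 in WT.

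As a description of both enzymes in each library, the CPM of Enpp1 over that of Alpl was 3.09, 7.17, 2.67, 4.62, 8.03 and 4.78 in Het 1 to 6, against 3.03, 3.15, 1.78, 1.66 and 1.82 in WT 1 to 5. This ratio averaged 5.06 ± 2.15 in Het (SD, n = 6) and 2.29 ± 0.734 in WT (SD, n = 5). Of the Het libraries, only Het 1 and Het 3 had ratios at or under the highest WT ratio, that of WT 2. As both genes were selected on this comparison, nothing further is read from the ratio. Its difference between the groups mostly follows from that of Alpl (8.14 CPM in Het and 17.6 CPM in WT on average). Enpp1 averaged 36.1 CPM in Het and 40.2 CPM in WT. The ratio is of transcript counts not divided by length, and says nothing of enzyme activity.

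Abcc6 (ENSMUSG00000030834, chromosome 7, 45967555 to 46030302, minus strand), the transporter mutated in pseudoxanthoma elasticum, was barely detected. It had 5 counts in Het 1 and 0 in Het 2 to 6, against 1, 4 and 1 counts in WT 2, WT 4 and WT 5 and 0 in WT 1 and WT 3. With 5 counts in Het and 6 in WT in all, no difference was detectable at this depth and no fold is given. A count of 0 allows at most 0.228 CPM in these libraries of either group.

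Of the mineral-forming genes, Runx2 differed more within the groups than between them. Runx2 (ENSMUSG00000039153, chromosome 17, 44495987 to 44814797, minus strand) had 0.222, 0.144, 1.03, 1.23, 3.41 and 1.82 CPM in Het 1 to 6, against 0.530, 0.670, 1.54, 2.20 and 0.972 CPM in WT 1 to 5. The Het libraries spanned a 23.7-fold range and the WT libraries a 4.16-fold range. Het 1 and Het 2, the Xist-positive Het libraries, lay below every WT library, and Het 5 lay above every one. The log2 fold change was 0.17 ± 0.62 (SE) over all libraries, -0.40 ± 0.59 without Het 5 and -2.64 ± 0.85 in the 7 Xist-positive libraries, where it rests on 5 Runx2 counts in Het. An antisense gene that shares exon bases with Runx2, Runx2os1, had 4 counts over all 11 libraries.

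Runx2 is known to bind its own promoter, so its start-site window is shown, at chr17:44814578-44814877 (minus strand, printed in the direction of the gene; RefSeq, GRCm38.p6).
Runx2: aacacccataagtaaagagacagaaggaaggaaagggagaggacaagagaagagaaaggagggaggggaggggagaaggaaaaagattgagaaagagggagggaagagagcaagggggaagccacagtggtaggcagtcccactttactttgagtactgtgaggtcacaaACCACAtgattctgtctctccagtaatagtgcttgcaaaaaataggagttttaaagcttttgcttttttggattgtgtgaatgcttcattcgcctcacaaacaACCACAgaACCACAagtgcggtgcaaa
This window holds the RUNX core 3 times, starting at positions -80, 23 and 31 with the first transcribed base at 0; 0.183 percent of all windows hold it 3 times or more. Of the other windows, that of Enpp1 holds it 1 time, at -144, and neither of the 2 Alpl windows holds it. A match of letters is a description of the sequence and not a mapped site.

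Ibsp (ENSMUSG00000029306, chromosome 5, 104299171 to 104311469, plus strand) was found in a few libraries of both groups. Its counts were 3, 0, 2, 2, 2 and 76 in Het 1 to 6, against 0, 1, 19, 65 and 2 in WT 1 to 5. Het 6 reached 5.12 CPM and WT 4 reached 4.78 CPM, WT 3 followed at 0.975 CPM, and the other 8 libraries lay at or below 0.222 CPM. No fold is given for a gene carried by 1 library of each group. Without Het 6 and WT 4, Ibsp was 0 to 0.222 CPM in Het and 0 to 0.975 CPM in WT.

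The libraries highest in Ibsp, Het 6 and WT 4, also held another osteoblast transcript. Bglap, which encodes the bone protein osteocalcin, had 0, 0, 0.147, 0, 1.19 and 10.05 CPM in Het 1 to 6, against 0, 0.402, 0.616, 3.09 and 0.224 CPM in WT 1 to 5, so Het 6 and WT 4 were again the highest of their groups. Over all 9 osteoblast and osteocyte markers, Bglap included, the summed level was 9.85 to 18.1 CPM in Het and 9.27 to 12.6 CPM in WT. That sum was highest in Het 6 and WT 4 too, but Bglap made up 10.05 of the 18.1 CPM and 3.09 of the 12.6 CPM. The other markers were mixed. Ifitm5 was lowest of its group in Het 6 (3.03 CPM) and in WT 4 (4.41 CPM). Dmp1 and Bglap2 were highest of their groups in both, at 0.337 CPM or less. Sp7, the osteoblast factor downstream of Runx2, was highest in Het 6 (1.28 CPM) and in WT 1 (2.52 CPM), with 0.955 CPM in WT 4. The part of these markers in the Ibsp levels was not tested. Ibsp is a known Runx2 target in bone, and its window, at chr5:104299037-104299336 (plus strand; RefSeq, GRCm38.p6), is shown beside that of Runx2.
Ibsp: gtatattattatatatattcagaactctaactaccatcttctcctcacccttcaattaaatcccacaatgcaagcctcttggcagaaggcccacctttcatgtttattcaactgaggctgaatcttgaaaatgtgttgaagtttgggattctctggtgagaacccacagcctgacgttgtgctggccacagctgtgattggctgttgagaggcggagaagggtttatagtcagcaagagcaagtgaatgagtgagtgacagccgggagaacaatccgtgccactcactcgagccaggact
The 6 letters of the RUNX core are not in this window. It has a CCAAT box (CCAAT, or ATTGG on the other strand), as do 37.4 percent of all windows.

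**Figure D2:**
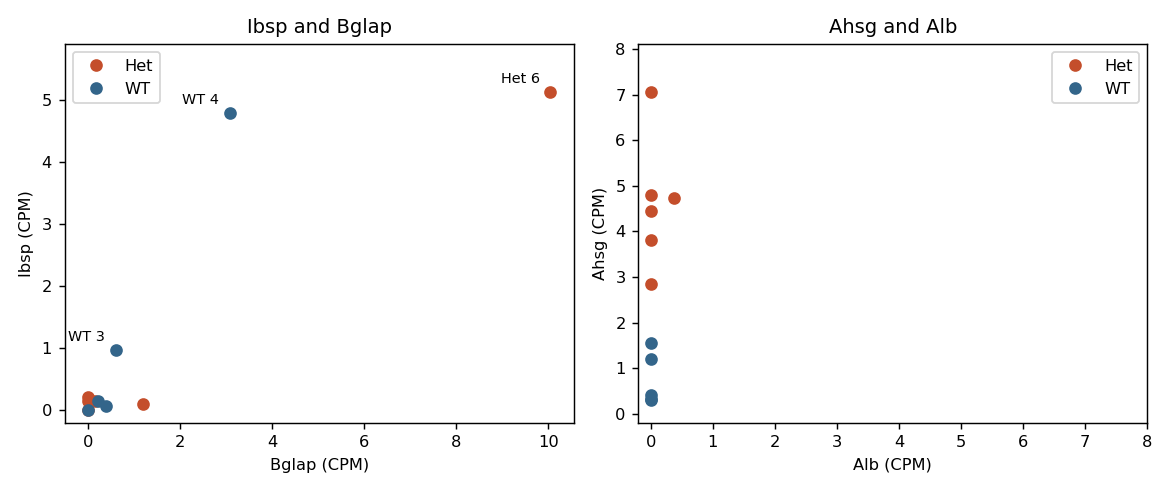
Left, Ibsp against the osteoblast gene Bglap in CPM, 1 point a library; Het 6 and WT 4 are high in both. Right, Ahsg against the hepatocyte gene Alb in CPM, where Ahsg reaches 7.05 CPM with Alb at 0 in all libraries but Het 1.

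As background for these counts, edgeR's quasi-likelihood test at an adjusted p of 0.05 called 742 of 14757 genes between Het and WT, or 5.03 percent; 2.65 percent rose and 2.38 percent fell. Of the 6 tested genes here, Ahsg and Tnfrsf11b passed as higher and Alpl as lower in Het, and Mgp, Enpp1 and Runx2 did not pass. Since the 8 were chosen with this comparison known, nothing is read from that count. The calls of Alpl and Tnfrsf11b were lost when a score over the skeletal muscle list, of which Tnnt3 and Tnni2 differed between the groups, was added as a covariate (log2 fold change -1.08 ± 0.31 and 0.65 ± 0.20, SE), and when a score of sex-linked genes was added (-0.95 ± 0.32 and 0.80 ± 0.21); Ahsg passed with each (2.503 ± 0.52 and 2.58 ± 0.52). In the 7 Xist-positive libraries, 2 Het and 5 WT, none of the 3 passed, with log2 fold changes of 2.52 ± 0.60 for Ahsg, -0.999 ± 0.28 for Alpl and 0.83 ± 0.23 for Tnfrsf11b. In bulk tissue, a change in the number of cells that make a transcript and a change in RNA per cell cannot be told apart.

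**Figure D3:**
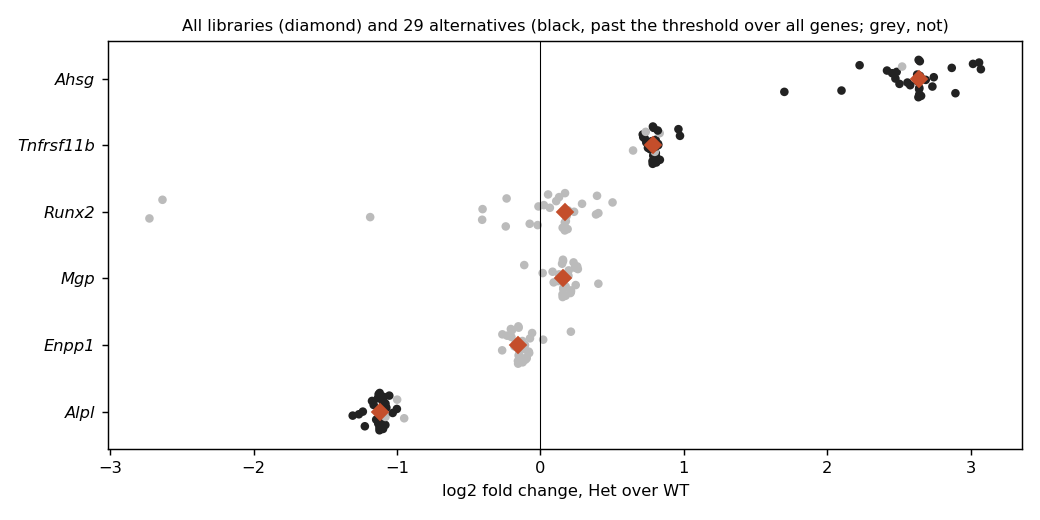
Log2 fold change of Het over WT for the 6 tested genes: diamonds are the fit of all 11 libraries, dots the 29 alternatives (other tools, scalings, filters, covariates, left-out libraries and a looser threshold of 0.1), black where the gene passed the threshold over all genes. Ahsg stays between 1.70 and 3.07 and Alpl between -1.31 and -0.95, while Runx2 spreads from -2.73 to 0.50.

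Levels were compared between genes only per length, as CPM per kb of merged exons. In Het the order was Mgp at 562 ± 56.4, Tnfrsf11b at 15.5 ± 1.92, Enpp1 at 3.52 ± 0.364, Ahsg at 2.10 ± 0.637, Alpl at 2.02 ± 0.744, Ibsp at 0.464 ± 0.987, Runx2 at 0.148 ± 0.137 and Abcc6 at 0.0108 ± 0.0264 (mean ± SD, n = 6). In WT it was Mgp at 504 ± 149, Tnfrsf11b at 9.04 ± 2.68, Alpl at 4.37 ± 0.541, Enpp1 at 3.92 ± 1.28, Ibsp at 0.577 ± 0.987, Ahsg at 0.344 ± 0.261, Runx2 at 0.134 ± 0.0781 and Abcc6 at 0.0152 ± 0.0211 (mean ± SD, n = 5). The place of Ibsp in both orders rests mainly on Het 6 and WT 4. Per kb, Ibsp lay below Runx2 in Het 2 to 5 and in WT 1, 2 and 5, and below Ahsg in WT 1, 2 and 5. Neighbours whose intervals of mean ± SD overlapped were Ahsg and Alpl, Alpl and Ibsp, Ibsp and Runx2, and Runx2 and Abcc6 in Het, and Alpl and Enpp1, Ibsp and Ahsg, and Ahsg and Runx2 in WT. Ahsg thus stood beside the pyrophosphate enzymes in Het and beside the scarce Ibsp and Runx2 in WT, a placing that follows from its fold change.

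**Figure D4:**
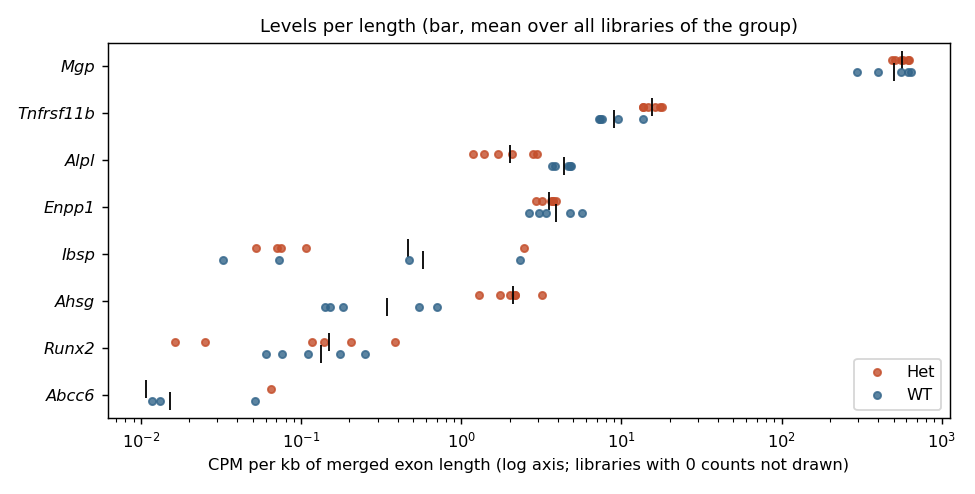
CPM per kb of merged exon length on a log axis, 1 point a library with counts, Het above WT in each row, black bars the mean over all libraries of the group. Mgp lies above 100 in every library. The Het and WT points do not overlap for Alpl and Ahsg, which were selected on this comparison, and the share of all genes without overlap was not computed.

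Within the groups, the levels of Mgp and Enpp1 ran opposite to each other. WT 1 and WT 2 had the lowest Mgp and the highest Enpp1 of the 11 libraries. After subtracting group means from log2 CPM, Pearson's r between both genes was -0.89 over the 11 libraries and -0.37 without WT 1 and WT 2; it is a description and rests on those libraries, which also stood apart over all genes. Of 9759 other abundant protein-coding genes, those nearest to Mgp on this measure were Naca (r = 0.98), a ribosome-associated chaperone subunit, Ipo7 (0.97), a nuclear import receptor, and Mfap4 (0.97), an elastic fibre protein; without WT 1 and WT 2 these were 0.90, 0.83 and 0.95. Those nearest to Alpl were Olfml1 (0.89), Pex19 (0.87), a peroxisome import factor, and Fbln1 (0.86), the matrix protein fibulin-1, with 0.92, 0.89 and 0.91 without WT 1 and WT 2. Those nearest to Enpp1 were Pi4ka (0.97), a lipid kinase, Prpf39 (0.95), a splicing factor, and Vkorc1l1 (0.95), a paralogue of the vitamin K reductase, with 0.89, 0.80 and 0.86 without them. Nearest to Ahsg were Akr1b10 (0.90), Mff (0.90), the mitochondrial fission factor, and Fcgrt (0.89), the neonatal Fc receptor; to Tnfrsf11b, Gnpda1 (0.93) and Fkbp14 (0.89). Nearest to Runx2 were Ube2e1 (0.90), Ptch1 (0.89), the hedgehog receptor, and Tceal3 (0.87); to Ibsp, Vamp8 (0.95), Polr3k (0.93) and Armcx1 (0.92). Without WT 1 and WT 2 these r were 0.87 to 0.95. Ibsp had 76 counts in Het 6, 65 in WT 4 and 19 in WT 3, so its r rest on few libraries. Its r without those libraries are not given. With so many genes searched over 11 libraries, high values of r are common.

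Other genes of mineral metabolism were read from 7 lists that did not hold the 8. Of 61 tested genes on them, 8 passed the threshold, 13.1 percent beside the 5.03 percent of all genes; 3 rose and 5 fell. The lists were made with earlier results of these libraries known, and nothing particular to them is drawn from this share. Over all genes tested, the median was a log2 fold change of -0.0046.

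The genes that handle pyrophosphate and phosphate had 1 of 10 tested members that fell and none that rose (median log2 fold change 0.128). It was Enpp3, an ecto-enzyme of the same family as Enpp1 that also cuts extracellular nucleotides, with 25.3 ± 3.08 CPM in Het and 52.4 ± 10.8 CPM in WT (SD, n = 6 and 5; log2 fold change -1.05 ± 0.13, SE, adjusted p = 2.96e-04). Its 6 Het libraries (21.7 to 30.2 CPM) lay below its 5 WT libraries (38.9 to 60.6 CPM). Enpp3 passed with the sex score (adjusted p = 0.0349) but not in the Xist-positive libraries alone, a fit of fewer libraries. The pyrophosphate exporter Ank (log2 fold change -0.34 ± 0.16, adjusted p = 0.265), the ATP and ADP hydrolase Entpd1 (0.26 ± 0.11, adjusted p = 0.217), the AMP hydrolase Nt5e (0.36 ± 0.20, adjusted p = 0.344) and the phosphate importers Slc20a1 (0.03 ± 0.14, adjusted p = 0.953) and Slc20a2 (0.31 ± 0.12, adjusted p = 0.143) did not pass. In the Enpp family all 5 tested relatives of Enpp1 had a negative log2 fold change (-1.05 to -0.30), and 1, Enpp3, passed.

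None of 9 tested genes of the vitamin K cycle and of other Gla proteins passed (median -0.098). This cycle equips Mgp to bind calcium. The carboxylase Ggcx was at 101.8 ± 14.6 CPM in Het and 95.4 ± 1.66 CPM in WT (log2 fold change 0.09 ± 0.10, adjusted p = 0.658), and neither the reductase Vkorc1 (0.32 ± 0.11, adjusted p = 0.124) nor the secreted Gla protein Gas6 (-0.37 ± 0.18, adjusted p = 0.277) passed.

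Of 9 tested mineral-binding proteins, 1 rose and 2 fell (median -0.043). Sparc, a collagen- and calcium-binding matrix protein, rose by 0.34 ± 0.08 on the log2 scale (10940 ± 794 CPM in Het and 8662 ± 802 CPM in WT, adjusted p = 0.0269). Its relative Sparcl1 fell by 0.74 ± 0.15 (adjusted p = 0.00936), and Phex, an endopeptidase of bone cells, fell by 1.03 ± 0.28 (adjusted p = 0.0474). Spp1, which encodes osteopontin, did not pass (log2 fold change -0.39 ± 0.84, adjusted p = 0.859). The call of Sparc was lost without Het 4, 5 or 6 or WT 1, 2 or 3 (highest adjusted p 0.0814, without WT 3) and that of Phex without any library but WT 5 (highest 0.106, without WT 4). With the sex score none of the 3 passed (adjusted p = 0.331 for Sparc, 0.347 for Sparcl1 and 0.444 for Phex).

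Among 13 tested osteochondrogenic transcription factors, 1 rose and 1 fell (median 0.112). Atf4, a stress factor that also acts in osteoblasts, rose by 0.38 ± 0.10 (208.8 ± 15.5 CPM in Het and 160.0 ± 23.5 CPM in WT, adjusted p = 0.0330). Sox9, the master factor of cartilage, fell by 1.16 ± 0.29 (2.94 ± 1.30 CPM in Het and 6.56 ± 1.79 CPM in WT, adjusted p = 0.0270). The chondrocyte markers summed to 42.2 to 78.1 CPM in Het and 13.6 to 24.5 CPM in WT, carried by Acan. The others summed to 9.38 to 15.4 CPM in Het and 9.27 to 15.8 CPM in WT, with Matn1 and Ucma at 0 in every library. Of these others Snorc fell, by 1.40 ± 0.38 (0.575 ± 0.184 CPM in Het and 1.53 ± 0.558 CPM in WT, adjusted p = 0.0453). Atf4 lost its call without Het 2, 3, 4, 5 or 6 or WT 1, 2 or 3 and Sox9 without Het 1, 2, 5 or 6 or WT 1 or 2, each with its highest adjusted p, 0.0798 and 0.0770, without WT 2. With the sex score neither passed (adjusted p = 0.460 and 0.136).

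Of 9 tested genes around RANKL and the osteoclast, 1 rose (median 0.146): Csf1, the growth factor of macrophages and osteoclasts, by 0.62 ± 0.15 (19.9 ± 2.60 CPM in Het and 12.9 ± 2.88 CPM in WT, adjusted p = 0.0280). RANKL itself, Tnfsf11, which osteoprotegerin binds, had 2 counts in Het 3, 3 in Het 6 and 0 in the other libraries. Its receptor Tnfrsf11a was at 11.5 ± 1.83 CPM in Het and 11.6 ± 4.13 CPM in WT (log2 fold change -0.01 ± 0.22, adjusted p = 0.986). Of the osteoclast genes, Ctsk, a collagen-degrading protease, was at 41.6 ± 7.12 CPM in Het and 30.1 ± 5.82 CPM in WT (log2 fold change 0.47 ± 0.14, adjusted p = 0.0766), and Acp5, an acid phosphatase, at 7.85 ± 3.78 CPM in Het and 7.07 ± 2.01 CPM in WT (0.15 ± 0.33, adjusted p = 0.861). Calcr was at 0, and Oscar, Ocstamp, Dcstamp and Atp6v0d2 had at most 12 counts in any library. The call of Csf1 was lost without Het 1, 2, 3 or 5 or WT 1, 2 or 3 (highest adjusted p 0.0734, without WT 3) and with the sex score (0.197).

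Of 7 tested relatives of Abcc6 in transporter subfamily C, 1 fell (median -0.155): Abcc8, the sulphonylurea receptor of potassium channels, by 0.92 ± 0.24 (2.78 ± 0.874 CPM in Het and 5.24 ± 1.22 CPM in WT, adjusted p = 0.0407). Abcc1 (-0.15 ± 0.08, adjusted p = 0.304), Abcc5 (-0.12 ± 0.15, adjusted p = 0.713) and Abcc9 (-0.14 ± 0.10, adjusted p = 0.508) were each above 50 CPM in both groups' means and did not pass. The call of Abcc8 was lost without Het 1, 2, 4, 5 or 6 or WT 1, 2 or 3 (highest adjusted p 0.107, without WT 2) and with the sex score (0.300).

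**Figure D5:**
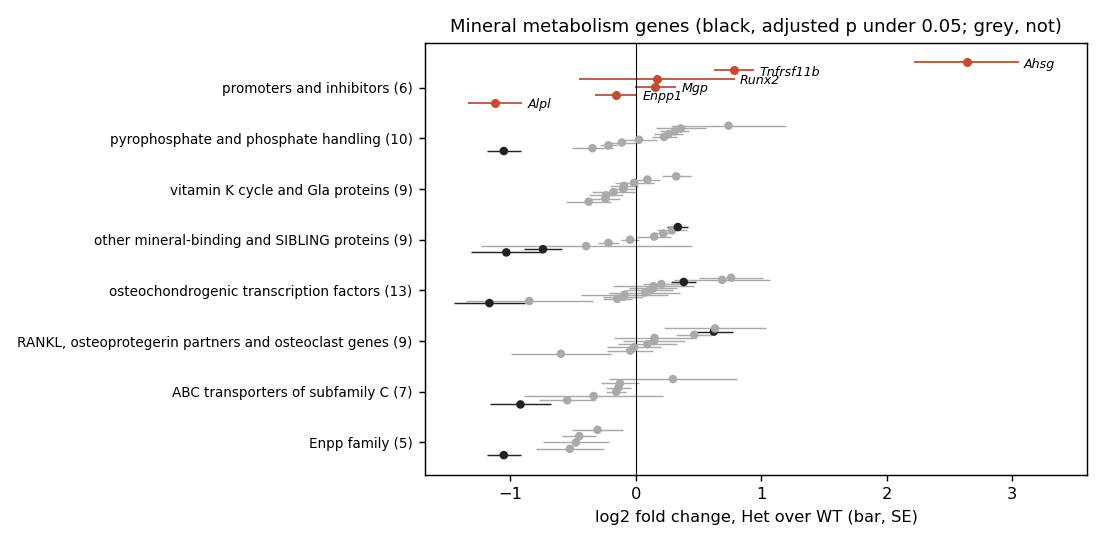
Log2 fold change of Het over WT with its SE for the 6 tested promoters and inhibitors (top, orange) and for the tested genes of 7 lists of mineral metabolism, with the number tested in parentheses; black points passed an adjusted p of 0.05 and grey did not. Ahsg and Alpl, selected on this comparison, lie outside the range of most list genes, though Sox9 (-1.16) lies further from 0 than Alpl (-1.12). The 5 Enpp relatives all lie left of 0, and 1 of them, Enpp3, passed.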

How the data were processed

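Whole-number counts per gene, deposited by the authors, were analysed for 11 unstranded, single-read libraries. Per the submitters' processing notes, STAR 2.5.2a, DESeq2, edgeR, limma and GRCm38 were used, with no role given; the read counter is not given in the sources used here. An alternative used the TMM-scaled CPM signal that the authors deposited. Symbols, coordinates and merged exon lengths came from GENCODE M21 (GRCm38), which matched 48349 of 48709 IDs, and start-site windows from RefSeq (5 of the 8 genes). The 24 rows that are not mouse genes (at most 8.1e-05 percent of counts) were left out.

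Genes kept by filterByExpr (minimum count 10, total 15), 14757, were scaled by TMM and Het was tested against WT in all libraries with edgeR's robust quasi-likelihood test (edgeR 4.0.16, R 4.3.3), Benjamini-Hochberg adjusted over all genes, threshold 0.05. The SE is the log2 fold change over the square root of F. Alternatives used limma 3.58.1 and DESeq2 1.42.0, other scalings and filters, covariates (means of log2 CPM with a prior count of 2; the sex score is 4 Y-linked genes minus Xist) and left-out libraries. The main fit at an adjusted p of 0.1 was counted as an alternative too. The column-name number, the osteoblast score and leaving out WT 4 and Het 6 were added after seeing the data. That number is a 6 or 7 in the deposited column names, which the labels do not explain. It was 6 in Het 1, 2, 4 and 5 and in WT 3, and 7 in the other libraries, so it was not balanced between the groups.

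The 8 genes, the 7 pathway and 13 marker lists and the tests were chosen with earlier results of these data known. Named besides the 8 were list genes past the threshold (the 2 smallest adjusted p per list and direction), the 3 genes nearest to a member by r (1 of them is not reported here) and markers; list genes that did not pass were named for their role after their values were seen. Counting limits cover counting error only, and p-values weigh the difference between the groups against the spread of these libraries within them.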

Additional observations from a re-analysis of the deposited data

Results flagged for a closer look

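Ibsp stood far from the rest of its group in 1 library of each genotype: 5.12 CPM in Het 6 and 4.78 CPM in WT 4, each set apart from its group by a gap that takes up most of the group's range. Both libraries were also the highest of their groups in Bglap. Of 14 pairs of gene and group examined in this way, these were the 2 set apart, both of 1 gene. For normally spread values the cut-off sets apart about 1 group in 20. That rate need not hold for sparse counts such as those of Ibsp.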

How the results depend on the processing

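As a description of genes selected on this comparison, of 29 alternatives Ahsg passed in 28, Alpl in 26 and Tnfrsf11b in 25, always in the same direction (log2 fold change 1.70 to 3.07, -1.31 to -0.95 and 0.65 to 0.97); Tnfrsf11b also missed the threshold without WT 1 and WT 2 (0.73 ± 0.19). Mgp, Enpp1 and Runx2 passed in none, and their sign turned in 1, 2 and 10. The 3 genes past the threshold became 1 with the sex score, 1 with the skeletal muscle score and 0 in the Xist-positive libraries, a fit of fewer libraries.

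The 742 genes called became 1297 with DESeq2, 1290 at an adjusted p of 0.1, 329 with a replicate block, 123 with the sex score, 349 with the skeletal muscle score, 34 in the Xist-positive libraries, 432 without WT 1 and WT 2 and 415 with the column-name number; leaving out 1 library gave 458 (without WT 2) to 853. The 8 pathway genes called became 13, 11, 1, 1, 1, 0, 3 and 3 in the same order, 4 with the chondrocyte score and 5 without WT 4 and Het 6, and 2 to 9 with 1 library left out. The cause was not tested.

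Same-numbered Het and WT libraries did not deviate together (r = -0.21 to 0.059 over 5 pairs), so the numbers were not taken as pairs; under the replicate block Ahsg, Alpl and Tnfrsf11b passed (2.73 ± 0.51, -1.15 ± 0.18 and 0.80 ± 0.17) and of the 8 pathway genes Enpp3 did. By longest transcript instead of merged exons, Alpl (3.23 CPM per kb) stood above Ahsg (3.11) in Het. Ibsp and Abcc6 were too scarce for a fold.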
